A study of Homo sapiens with 15 samples.

Results

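Bile acid transport and conjugation in HepG2 cells is described here through 10 genes, chosen by symbol from the 35012 gene symbols of the deposited count table, in which all 10 were listed. They comprise the canalicular exporters ABCB11, ABCB4 and ABCC2, the basolateral exporters ABCC3 and SLC51A with SLC51B, the sinusoidal uptake carriers SLC10A1 and SLCO1B1, and the conjugation enzymes SLC27A5 and BAAT. Low counts left 7 of the 10 for testing, and ABCB11, SLC10A1 and SLCO1B1 are given by their counts. HepG2 is an established human liver cancer cell line, and the study asked how depletion of either ATPase of SWI/SNF, a family of chromatin remodelling complexes, or of both, changes its transcripts. The BRG1 group (4 libraries) carried a short hairpin RNA against BRG1, the product of SMARCA4. The BRM group (3 libraries) carried a hairpin against BRM, the product of SMARCA2. The double group (4 libraries) carried hairpins against both, and the NS group (4 libraries) a non-silencing hairpin. Every group shared lentiviral transduction with polybrene at 8 ug/mL, puromycin selection and harvest 5 days after transduction, with mRNA sequencing of total RNA. The labels name no added bile acid, give no hairpin sequences and leave unsaid which libraries are separate cultures, so every p-value refers to library-to-library spread that may be technical.

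Hepatocytes make bile acids from cholesterol, join them to glycine or taurine and pump them into the canaliculus, the apical channel that drains to the bile duct. After reabsorption in the intestine they return in portal blood and are taken up again across the sinusoidal membrane. The nuclear receptor FXR, the product of NR1H4, senses bile acids and is known to activate the genes of several exporters, SLC51A and SLC51B among them, while its target NR0B2 (SHP) represses bile acid synthesis. When canalicular export fails, the basolateral exporters offer a route back to blood.

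The results turn most on SLC51A and SLC51B, which encode the α and β subunits of the OSTα-OSTβ exporter, a protein known to need both. They sit on different chromosomes and moved in different groups. The 250 bases before the start of each gene, from RefSeq on GRCh38.p14, are shown so that their upstream sequences can be set side by side. Capitals mark AGGTCA, the core hexamer bound by many nuclear receptors.
SLC51A, chr3:196216284-196216533, plus strand: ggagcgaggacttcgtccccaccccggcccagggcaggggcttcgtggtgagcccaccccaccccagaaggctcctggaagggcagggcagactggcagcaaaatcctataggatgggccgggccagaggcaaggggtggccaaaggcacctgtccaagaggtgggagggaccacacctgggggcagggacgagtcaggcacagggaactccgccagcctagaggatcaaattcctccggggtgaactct
SLC51B, chr15:65045137-65045386, plus strand: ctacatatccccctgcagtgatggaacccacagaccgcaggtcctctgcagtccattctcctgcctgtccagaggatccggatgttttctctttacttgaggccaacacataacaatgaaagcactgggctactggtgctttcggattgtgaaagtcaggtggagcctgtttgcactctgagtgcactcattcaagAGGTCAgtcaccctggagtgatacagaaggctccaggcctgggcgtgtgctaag

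The GENCODE v29 interval of SLC51A begins earlier, at 196211487. Read on both strands, AGGTCA occurred once in the SLC51B window, starting 54 bases before the gene start, and not in the SLC51A window. The same 6 letters stood in 12.1% of 35116 RefSeq promoter windows and in those of 3 of the 8 members with a window (BAAT, SLC10A1 and SLC51B). The AP-1 letters TGANTCA were found in the window of ABCB11 alone among those members and in 6.57% of all windows. The inverted repeat of this hexamer with 1 base between the copies, which is the FXR type of site, the direct repeat with 1 base between, and the HNF1 palindrome occurred letter for letter in no member's window, and in 0.0, 0.0171 and 0.0057% of all windows. A match is a description of letters, and the lack of one says only that these exact letters are not in this window.

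Each BRG1 library held 17291281 to 23734366 estimated counts in all, each BRM library 12550787 to 26998203, each double library 13885573 to 27187991 and each NS library 11500149 to 22467399. On the CPM scale used below (counts scaled to a common library total by the TMM method), 3 counts were worth 0.105 to 0.277. SMARCA4 averaged 27.8 ± 2.32 CPM in BRG1, 346 ± 86.7 in BRM, 46.2 ± 6.09 in double and 307 ± 6.99 in NS libraries (SD, n = 4, 3, 4 and 4). SMARCA2 averaged 25.8 ± 3.64 CPM in BRG1, 4.38 ± 2.22 in BRM, 2.57 ± 0.299 in double and 39.2 ± 4.05 in NS libraries. Both hairpin targets were thus low in the groups labelled for them, but not equally. SMARCA4 was higher in double than in BRG1 libraries (log2 fold change 0.73, SE 0.16, edgeR quasi-likelihood test, adjusted p = 0.0086). SMARCA2 in the BRG1 libraries was below every NS library (−0.61, SE 0.23, edgeR, adjusted p = 0.071). The part of these differences in the results was not tested. In every group the libraries numbered 1 and 2 stood apart from the later ones, with mitochondrially encoded transcripts at 4.97 to 8.33% of counts in libraries 1 and 2 and at 1.33 to 3.55% in libraries 3 and 4. What the numbers stand for is not stated, so changes within libraries 1 and 2 and within libraries 3 and 4 are given beside the pooled ones. The BRM group has a single library above number 2, whose spread was taken to be that of the other groups.

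Per kilobase of transcript (the median length of each gene's coding transcripts), the levels in NS libraries put ABCC3 first at 54.6 ± 26.4 CPM per kilobase, then ABCC2 at 34.3 ± 8.44 and SLC51B at 11.05 ± 6.29 (SD, n = 4). SLC27A5 followed at 4.92 ± 0.429, SLC51A at 4.24 ± 1.80, ABCB4 at 4.06 ± 0.915, BAAT at 0.836 ± 0.215 and SLC10A1 at 0.102 ± 0.118. ABCC3 and ABCC2 overlapped between libraries, as did SLC27A5, SLC51A and ABCB4 with each other, so these neighbours have no clear order. With the longest transcript instead, ABCC3 stood at 13.3 and SLC51A at 1.995 CPM per kilobase, below ABCC2 (33.8) and ABCB4 (3.64). ABCB11 and SLCO1B1 lay at the bottom with 2 counts each over all 15 libraries.

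**Figure D1:**
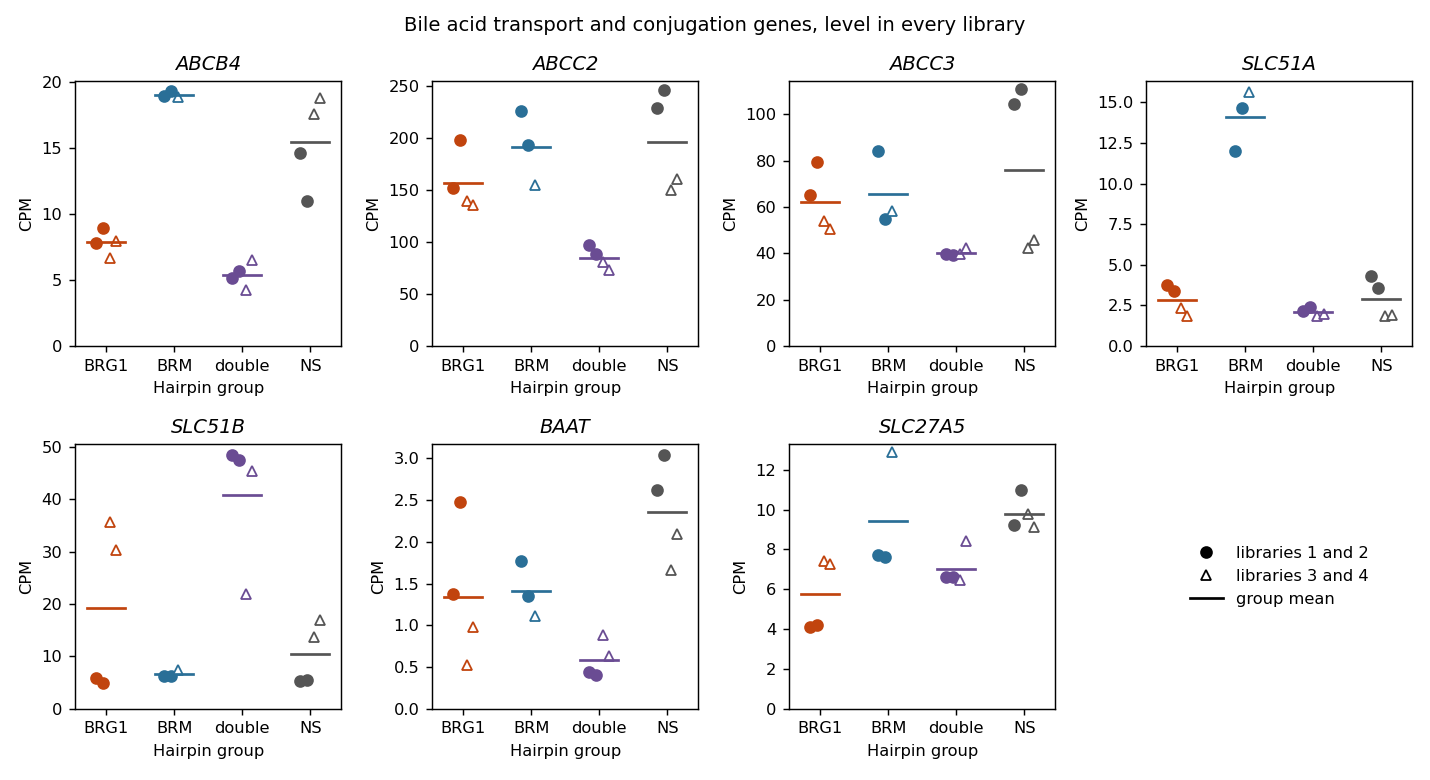
Level of each of the 7 tested genes in every library, in CPM, with a panel for each gene. Groups run along the horizontal axis, filled circles are libraries 1 and 2, open triangles libraries 3 and 4, and bars are group means. The 3 BRM libraries of SLC51A (12.0 to 15.6 CPM) lie above all others, and the double libraries are the lowest group for ABCC2, at 73.2 to 96.9 CPM.

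Of the canalicular exporters, the phospholipid floppase ABCB4 (MDR3), which supplies the phosphatidylcholine that shields the duct from bile acids, was lower whenever BRG1 was depleted. ABCB4 (chromosome 7, 87401697 to 87480435, minus strand, GRCh38) stood at 7.81, 8.995, 6.66 and 8.01 CPM in BRG1 libraries 1 to 4, at 18.9, 19.4 and 18.9 CPM in the BRM libraries, at 5.19, 5.73, 4.25 and 6.52 CPM in the double libraries and at 14.7, 10.97, 17.6 and 18.8 CPM in NS libraries. All BRG1 and all double libraries were below every NS library, and the BRM libraries, which lay close together, were just above the NS range. The log2 fold change against NS was −0.98 ± 0.19 in BRG1 (estimate ± SE; edgeR quasi-likelihood test, adjusted p = 0.00196) and −1.52 ± 0.19 in double (adjusted p = 9.1e-05), both of which passed the threshold of 0.05. The change of 0.29 ± 0.20 in BRM did not pass (edgeR, adjusted p = 0.39). Both falls were seen within each library set, at −0.62 and −1.32 in BRG1 and at −1.24 and −1.77 in double, libraries 1 and 2 first, and both kept passing without any single library.

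ABCC2 (MRP2), which exports bilirubin glucuronides and divalent bile acid conjugates across the same membrane, fell in the double group. ABCC2 (chromosome 10, 99782640 to 99852594, plus strand) held 152, 198, 140 and 136 CPM in BRG1 libraries, 226, 194 and 155 CPM in BRM libraries, 96.9, 88.6, 81.0 and 73.2 CPM in double libraries and 229, 246, 150 and 160 CPM in NS libraries. The double libraries were below all libraries of the other 3 groups, while the BRG1 and BRM libraries overlapped those of NS. The changes against NS were −1.21 ± 0.20 in double (edgeR, adjusted p = 0.00062), −0.33 ± 0.20 in BRG1 (adjusted p = 0.27) and −0.04 ± 0.21 in BRM (adjusted p = 0.94). The double knockdown was also below BRG1 knockdown alone, at −0.88 ± 0.20 (edgeR, adjusted p = 0.011). ABCC2 was the only one of the 7 members to pass in that direct comparison, in which 10.8% of all tested genes passed. Within the sets the double change against NS was −1.36 and −1.01, and the BRG1 change of −0.44 within libraries 1 and 2 passed (edgeR, adjusted p = 0.032) whereas that of −0.17 within libraries 3 and 4 did not (adjusted p = 0.43).

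ABCB11 (chromosome 2, 168915498 to 169031324, minus strand), the bile salt export pump and the main canalicular transporter of monovalent bile acids, was not measurable. It had 1 count in BRM library 2, 1 count in NS library 1 and 0 counts in the other 13 libraries. A count of 0 in a library allows up to 3 counts, so no difference between groups was detectable at this depth.

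The basolateral exporters moved in unlike ways, and SLC51A was the one tested member to rise after BRM knockdown. SLC51A (chromosome 3, 196211487 to 196243178, plus strand) stood at 3.79, 3.41, 2.35 and 1.87 CPM in BRG1 libraries, 12.0, 14.7 and 15.6 CPM in BRM libraries, 2.13, 2.43, 1.86 and 1.95 CPM in double libraries and 4.32, 3.60, 1.84 and 1.91 CPM in NS libraries. Each BRM library was above every library of the other 3 groups, which overlapped. The rise in BRM was 4.81-fold against NS, or 2.27 ± 0.32 on the log2 scale (edgeR, adjusted p = 0.00049), and it passed within libraries 1 and 2 (1.74) and against the single later BRM library (3.05). SLC51A changed by −0.04 ± 0.30 in BRG1 (edgeR, adjusted p = 0.95) and by −0.49 ± 0.31 in double (adjusted p = 0.30), neither passing, although the double change passed within libraries 1 and 2 (−0.81, adjusted p = 0.023) against 0.02 within libraries 3 and 4. SLC51A shares 389 exonic bases, 7.35% of its own, with PCYT1A on the opposite strand, and the strand setting of the counting is not given in the sources used here. PCYT1A changed by 0.70 in BRG1 (edgeR, adjusted p = 0.0015), −0.28 in BRM (adjusted p = 0.21) and 0.20 in double (adjusted p = 0.31), and the part of the shared bases in the counts of SLC51A was not tested.

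Its partner SLC51B rose in the double group instead. SLC51B (chromosome 15, 65045370 to 65053396, plus strand) held 5.88, 4.86, 35.6 and 30.3 CPM in BRG1 libraries, 6.21, 6.25 and 7.47 CPM in BRM libraries, 48.4, 47.6, 21.98 and 45.4 CPM in double libraries and 5.34, 5.45, 13.7 and 17.0 CPM in NS libraries. Every double library was above every NS library, whereas the BRG1 libraries fell into a low pair (1 and 2) level with NS libraries 1 and 2 and a high pair (3 and 4) above every NS library. The changes against NS were 1.97 ± 0.59 in double (edgeR, adjusted p = 0.027), 0.88 ± 0.58 in BRG1 (adjusted p = 0.32) and −0.64 ± 0.64 in BRM (adjusted p = 0.59). Within libraries 1 and 2 the double change was 3.15, and within libraries 3 and 4 it was 1.12, a difference of −2.04 ± 0.38 (edgeR, adjusted p = 0.011). This test of the difference between sets was passed by 2 of 7 members (with ABCC3) in double, beside 3.71% of all genes, and by 0 of 7 in BRG1 and in BRM, beside 2.49 and 2.26% (edgeR). At an unadjusted p under 0.05 it was passed by 4 of 7 in each of these, and limma voom called 0. In the BRG1 group SLC51B changed by −0.001 within libraries 1 and 2 (edgeR, adjusted p = 1.0) and rose by 1.09 within libraries 3 and 4 (adjusted p = 0.0075). In the BRM group it changed by 0.21 within libraries 1 and 2 (adjusted p = 0.64) and fell by 1.05 in the single later library (edgeR, adjusted p = 0.043). The pooled rise in double was near the threshold, missing it without NS library 1 (adjusted p = 0.077), NS library 2 (0.084), double library 1 (0.065), double library 2 (0.062) or double library 4 (0.054), and with no filter on low counts (0.062, all edgeR).

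The balance of the subunits therefore differed between the BRM, double and NS libraries. The ratio of SLC51B to SLC51A CPM had a median of 8.36 in BRG1 libraries (1.42 to 16.2), 0.478 in BRM libraries (0.427 to 0.517), 21.2 in double libraries (11.8 to 23.4) and 4.48 in NS libraries (1.24 to 8.93). The double libraries all lay above the NS range and the BRM libraries all below it. BRG1 and NS libraries split by number, so their medians stand for no library. The ratio was 1.55, 1.42, 15.2 and 16.2 in BRG1 libraries 1 to 4 and 1.24, 1.51, 7.45 and 8.93 in NS libraries 1 to 4. BRG1 libraries 1 and 2 were thus within the NS range, and BRG1 libraries 3 and 4 above it and within the double range. Lengths cancel between groups, but not between the genes, so a ratio of 1 does not stand for equal numbers of transcripts.

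**Figure D2:**
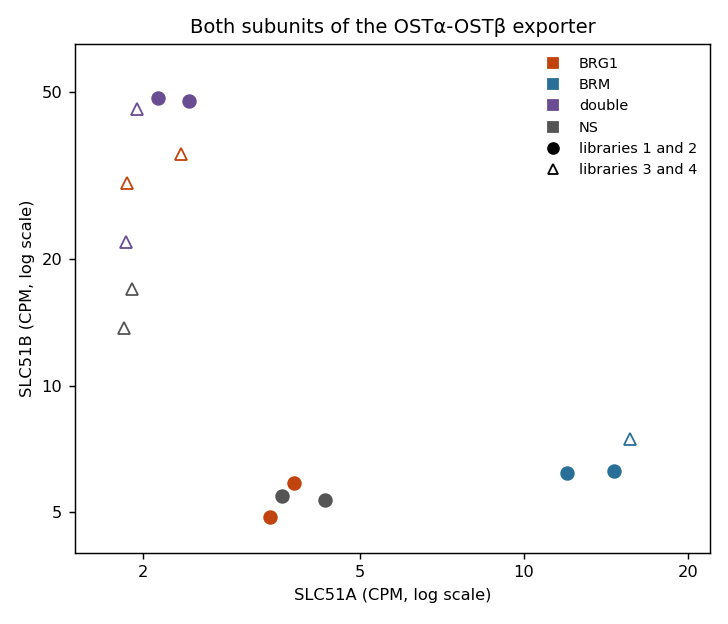
SLC51A on the horizontal axis against SLC51B on the vertical axis, both in CPM on log scales, with 1 point per library, coloured by group. Filled circles are libraries 1 and 2 and open triangles libraries 3 and 4. BRM libraries sit at the right (12.0 to 15.6 CPM of SLC51A) and double libraries at the upper left (21.98 to 48.4 CPM of SLC51B), while BRG1 and NS libraries split by library number.

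ABCC3 (MRP3), which returns bile acid and drug glucuronides to blood, fell in the double group, but the fall rested on the early libraries. ABCC3 (chromosome 17, 50634777 to 50692252, plus strand) held 65.05, 79.6, 54.0 and 50.7 CPM in BRG1 libraries, 84.0, 54.7 and 58.3 CPM in BRM libraries, 39.7, 39.1, 39.7 and 42.2 CPM in double libraries and 105, 111, 42.5 and 45.9 CPM in NS libraries. The double libraries hardly differed among themselves and were all below NS, yet NS library 3 was within 1 CPM of double library 4, and NS libraries 1 and 2 were far above. The changes against NS were −0.92 ± 0.29 in double (edgeR, adjusted p = 0.034), −0.29 ± 0.29 in BRG1 (adjusted p = 0.55) and −0.21 ± 0.31 in BRM (adjusted p = 0.73). Within libraries 1 and 2 ABCC3 was lower in all 3 knockdowns, at −0.57 in BRG1 (edgeR, adjusted p = 0.019), −0.64 in BRM (adjusted p = 0.016) and −1.45 in double (adjusted p = 6.5e-05). In the later libraries its changes were 0.24, 0.40 and −0.11 in BRG1, BRM and double, with no pass (edgeR, adjusted p = 0.35, 0.20 and 0.66). The double change differed between the sets by 1.33 ± 0.25 (edgeR, adjusted p = 0.011). The pooled fall in double missed the threshold with voom (adjusted p = 0.068), with only double and NS libraries in the fit (0.057), and without any of NS libraries 1 (0.11) and 2 (0.087) and double libraries 1 (0.061), 2 (0.060) and 3 (0.067).

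The uptake carriers were near or below detection in these cells. SLC10A1 (NTCP; chromosome 14, 69775417 to 69797289, minus strand), the sodium-dependent carrier of conjugated bile acids, gave 92 counts in all. It stood at 0.39, 0.26, 0.04 and 0 CPM in BRG1 libraries, 1.05, 1.20 and 0.51 CPM in BRM libraries, 0.38, 0.20, 0.14 and 0 CPM in double libraries and 0.44, 0.40, 0 and 0 CPM in NS libraries. The summed counts were 16 in BRG1, 48 in BRM, 14 in double and 14 in NS, so the 3 BRM libraries were above every other library. Without the filter on low counts the BRM change was 2.05 ± 1.03 and did not pass (edgeR, adjusted p = 0.33). SLCO1B1 (OATP1B1; chromosome 12, 21131202 to 21239246, plus strand), a sodium-independent carrier, gave 1 count in BRM library 3 and 1 in NS library 4.

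Conjugation takes place in sequence, with SLC27A5 (bile acyl-CoA synthetase) known for activating bile acids and BAAT for joining them to glycine or taurine. BAAT (chromosome 9, 101360417 to 101383519, minus strand) was scarce, at 1.38, 2.48, 0.52 and 0.98 CPM in BRG1 libraries, 1.77, 1.35 and 1.11 CPM in BRM libraries, 0.44, 0.40, 0.88 and 0.63 CPM in double libraries and 2.62, 3.04, 1.66 and 2.09 CPM in NS libraries. All double libraries were below all NS libraries, and BRG1 and BRM libraries overlapped with NS at its low end. BAAT fell by 1.97 ± 0.44 on the log2 scale in double (edgeR, adjusted p = 0.0054), a 3.91-fold fall that passed within libraries 1 and 2 (−2.72) and within libraries 3 and 4 (−1.30). Its changes of −0.81 ± 0.42 in BRG1 (edgeR, adjusted p = 0.19) and −0.75 ± 0.46 in BRM (adjusted p = 0.33) did not pass, although the BRG1 change passed without BRG1 library 2, the highest of that group (−1.33, adjusted p = 0.039).

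SLC27A5 (chromosome 19, 58479512 to 58512413, minus strand) fell in the BRG1 group. It held 4.10, 4.19, 7.44 and 7.27 CPM in BRG1 libraries, 7.74, 7.60 and 12.9 CPM in BRM libraries, 6.61, 6.61, 6.46 and 8.41 CPM in double libraries and 9.22, 10.97, 9.78 and 9.11 CPM in NS libraries. All BRG1 and all double libraries were below every NS library, and the BRM libraries lay on both sides. The changes were −0.76 ± 0.24 in BRG1 (edgeR, adjusted p = 0.037), −0.05 ± 0.26 in BRM (adjusted p = 0.93) and −0.48 ± 0.24 in double (adjusted p = 0.19). Within libraries 1 and 2 the BRG1 change was −1.28 (edgeR, adjusted p = 0.00021) and within libraries 3 and 4 it was −0.36 and did not pass (adjusted p = 0.19). The pooled BRG1 call was lost without BRG1 library 1 (adjusted p = 0.087) or 2 (0.083) or without any of the NS libraries (0.053 to 0.070), with only BRG1 and NS in the fit (0.053) and with no filter on low counts (0.068, all edgeR). SLC27A5 shares 14.1% of its exonic bases with ZNF446 on the opposite strand, which passed in none of the 3 comparisons with NS.

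**Figure D3:**
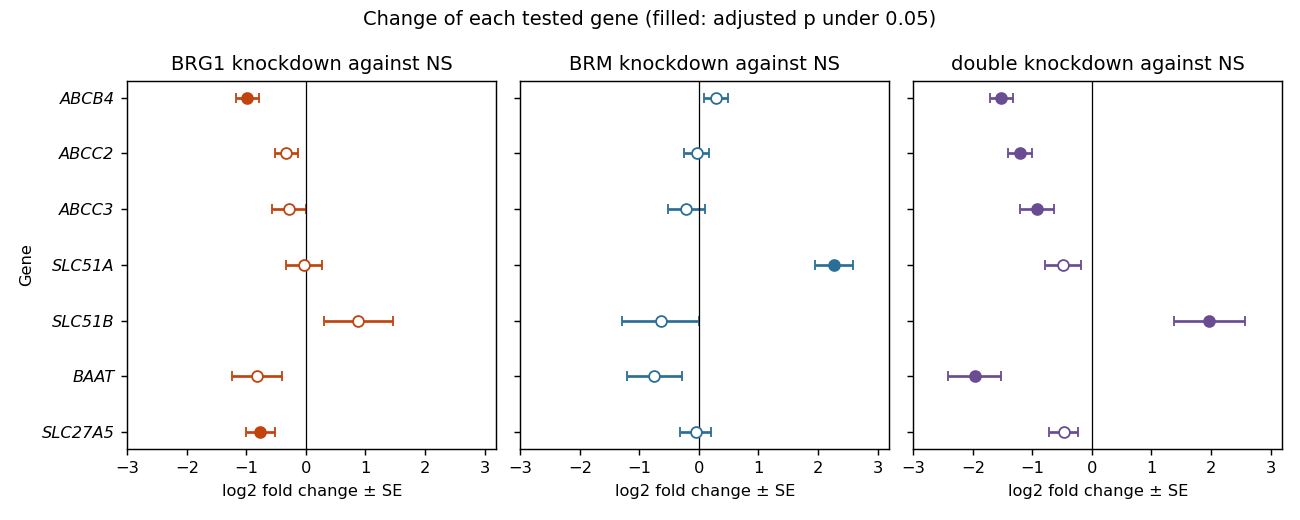
Log2 fold change against NS (horizontal axis) of the 7 tested genes (vertical axis) in BRG1, BRM and double knockdown, with bars of 1 SE on each side. Filled points have an adjusted p under 0.05 (edgeR). Filled points number 2 in BRG1, 1 in BRM and 5 in double.

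Counted over the members, 0 of 7 passed as higher and 2 as lower in BRG1 (ABCB4 and SLC27A5), where 12.5 and 9.97% of all 14621 tested genes passed in those directions. In BRM 1 of 7 passed as higher (SLC51A) and 0 as lower, beside 7.66 and 6.26% of all genes. For both of these zeros, an unadjusted p under 0.05, DESeq2 and limma voom gave 0 as well. In double 1 of 7 passed as higher (SLC51B) and 4 as lower (ABCB4, ABCC2, ABCC3 and BAAT), beside 11.8 and 9.9% of all genes. The median log2 change of the 7 was −0.33 in BRG1, −0.05 in BRM and −0.92 in double, beside medians of 0.02, 0.03 and 0.02 over all tested genes. The 7 are those that passed the filter on low counts, and the 3 comparisons share the same NS libraries. In a bulk sample, fewer cells of a type and less RNA per cell cannot be told apart.

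Set directly against each other, the single knockdowns differed at 3 of the 7 members. SLC51A was lower in BRG1 than in BRM at −2.30 ± 0.32 (edgeR, adjusted p = 7.9e-05), ABCB4 at −1.28 ± 0.20 (adjusted p = 0.00022) and SLC27A5 at −0.71 ± 0.26 (adjusted p = 0.047). Of all 14621 tested genes 33.9% passed in this comparison, 2520 as higher and 2437 as lower. With so few members, 3 of 7 is not set apart from that share. The call of SLC27A5 was weak, passing in 4 of the 15 fits that left out 1 library (edgeR, adjusted p from 0.028 to 0.27). SLC51B was higher in BRG1 than in BRM by 1.53 ± 0.65 and missed the threshold (edgeR, adjusted p = 0.086; unadjusted p = 0.034), although DESeq2 called it. In double against BRM, SLC51A (−2.75 ± 0.33), ABCB4 (−1.81 ± 0.21) and ABCC2 (−1.17 ± 0.21) were lower (edgeR, adjusted p = 6.0e-05, 4.0e-05 and 0.0013). SLC51B was higher there by 2.62 ± 0.68 (edgeR, adjusted p = 0.014), in a comparison where 19.1% of all genes passed.

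Whether the double knockdown differed from the sum of the single ones was tested by the interaction of both hairpins on the log2 scale. SLC51A passed at −2.72 ± 0.44 (edgeR, adjusted p = 0.012), where 0.499% of all genes passed. It averaged 14.1 ± 1.87 CPM with the BRM hairpin alone (SD, n = 3), but 2.09 ± 0.251 CPM with both hairpins, 2.85 ± 0.896 CPM with the BRG1 hairpin alone and 2.92 ± 1.24 CPM with the NS hairpin (n = 4 each). The interaction was −2.41 within libraries 1 and 2 and −3.20 within the later ones, and it passed without any single library. The other 6 members did not pass, with estimates from −0.85 ± 0.29 for ABCC2 (edgeR, adjusted p = 0.22) and −0.83 ± 0.28 for ABCB4 (adjusted p = 0.21) to 1.73 ± 0.86 for SLC51B (adjusted p = 0.47). With the replicate number as a block the interaction of ABCC2 passed as well (−0.78 ± 0.18, edgeR, adjusted p = 0.034).

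**Figure D4:**
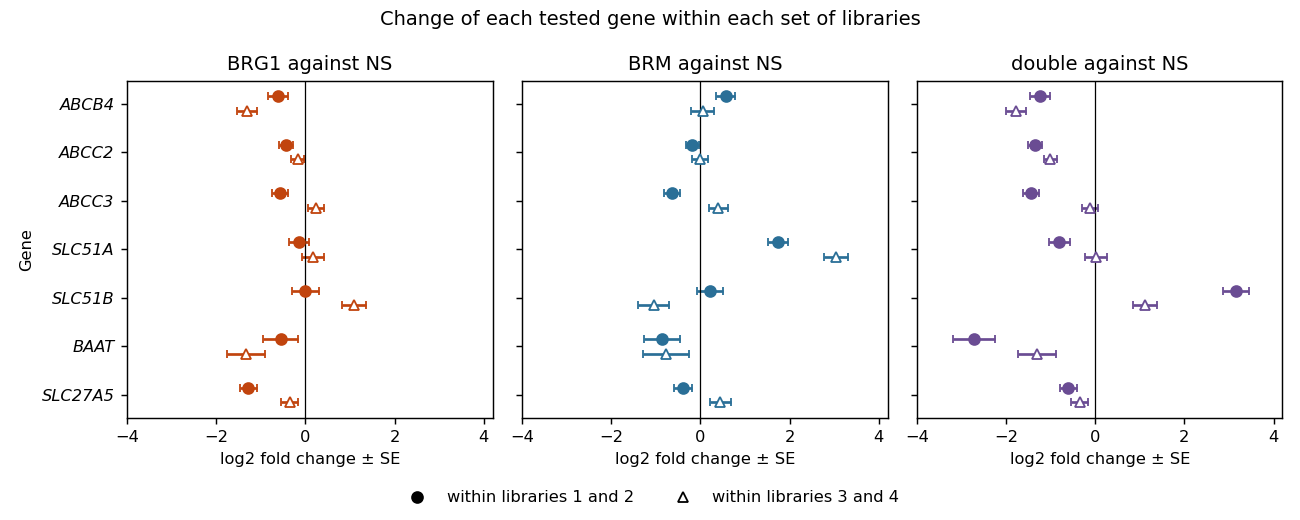
Log2 fold change against NS (horizontal axis, bars of 1 SE on each side) of the 7 tested genes within libraries 1 and 2 (filled circles) and within libraries 3 and 4 (open triangles), with a panel for each knockdown. ABCB4 in BRG1 and double, SLC51A in BRM, and ABCC2, BAAT and SLC51B in double lie on the same side of 0 in both sets, whereas ABCC3 in double is at −1.45 and −0.11.

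Of 55 other bile acid genes in 5 lists (synthesis, regulators, other transporters, detoxification and canalicular trafficking), 48 were tested. In BRG1 4 were higher and 16 lower, beside 12.5 and 9.97% of all tested genes, so the higher ones were no more frequent than that share. In BRM 8 were higher and 1 lower, beside 7.66 and 6.26%, and in double 2 were higher and 12 lower, beside 11.8 and 9.9%. Their median log2 changes were −0.76, 0.24 and −0.52 in these groups. UGT1A3, among the 8 higher in BRM, had 28 to 48 counts per BRM library and at most 4, 3 and 0 per NS, BRG1 and double library. It passed the filter on low counts only through the BRM group, where it is high, so its call there is no separate finding. NR5A2, among the 16 lower in BRG1 and the 12 lower in double, had 12 to 24 counts per NS library. In BRG1, BRM and double it had at most 12, 11 and 13 per library. NR5A2 passed the filter only through the NS group, where it is high, so these calls are no separate finding either. The list genes named as higher or lower passed at adjusted p from 1.6e-05 to 0.049 (edgeR). Hepatocyte markers were lower for 6 of 10 in BRG1 (TTR, TF, ALB, FGB, APOB and HNF4A, the last also among the regulators) and for 2 in double (TTR and ALB), while in BRM 1 was higher (FGB) and 2 were lower (TTR and APOA2). The CPM summed over 10 of them (ALB and APOB among these) was 6132 to 20829 in BRG1, 41884 to 49980 in BRM, 11588 to 27033 in double and 24117 to 36213 in NS libraries, and its part in the results was not tested.

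**Figure D5:**
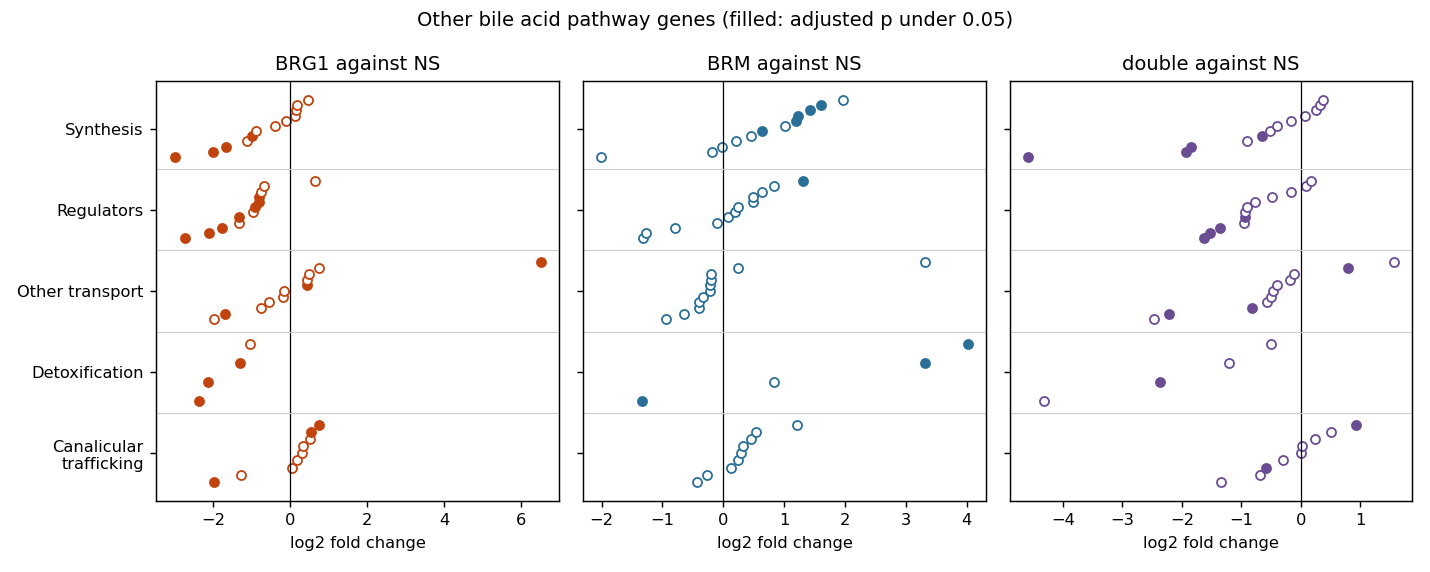
Log2 fold change against NS (horizontal axis) of the 48 tested genes of the 5 lists (rows), with a panel for each knockdown and filled points where the adjusted p was under 0.05 (edgeR). Synthesis genes pass as lower in BRG1 and double (4 of 12 each) and as higher in BRM (5 of 12). The rightmost point of the transport row in each panel is SLCO1B3, whose position is no measured fold, since NS libraries had 0 counts of it.

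Among the 12 regulators tested, 7 were lower in BRG1, 1 was higher in BRM and 4 were lower in double, beside 9.97, 7.66 and 9.9% of all genes, a share that the single regulator in BRM does not stand out from. The 7 and the 4 include NR5A2, which passed the filter on low counts only through the NS group and is no separate finding. NR1H4 (FXR) stood at 3.63, 2.69, 9.14 and 10.4 CPM in BRG1 libraries, 130, 111 and 79.2 CPM in BRM libraries, 18.4, 18.9, 8.78 and 13.6 CPM in double libraries and 37.3, 39.8, 51.4 and 43.8 CPM in NS libraries. All BRG1 and double libraries were below NS and all BRM libraries above it. NR1H4 fell by 2.73 ± 0.39 in BRG1 (edgeR, adjusted p = 0.00021) and by 1.53 ± 0.37 in double (adjusted p = 0.0087). Its rise of 1.31 ± 0.39 in BRM (edgeR, adjusted p = 0.037) passed in 6 of the 15 fits that left out 1 library (adjusted p from 0.023 to 0.14). NR0B2 (SHP), a target of FXR, changed by −0.76 ± 0.46, −1.26 ± 0.51 and −0.48 ± 0.46 in BRG1, BRM and double, with no pass (edgeR, adjusted p = 0.27, 0.12 and 0.51). It held 22.1, 21.0, 68.8 and 80.9 CPM in BRG1, 21.8, 31.3 and 48.5 in BRM, 53.8, 57.2, 45.6 and 77.4 in double and 41.7, 51.2, 119 and 115 in NS libraries. All BRG1 and BRM libraries were thus below the NS libraries of their own set. Double libraries 1 and 2 were above NS libraries 1 and 2, and double libraries 3 and 4 below NS libraries 3 and 4. Lower in BRG1 was also the FGF19 co-receptor KLB (−2.12 ± 0.36). The lipid-sensing receptor PPARA was lower in both BRG1 (−0.90 ± 0.19) and double (−1.37 ± 0.19). So was the xenobiotic receptor NR1I2 (PXR), at −0.81 ± 0.21 in BRG1 and −0.94 ± 0.21 in double.

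Of 12 synthesis genes, 4 were lower in BRG1, 5 were higher in BRM and 4 were lower in double, beside 9.97, 7.66 and 9.9% of all genes. In the opposite direction edgeR, DESeq2 and voom called 0 in each group, with 1 gene lower in BRM at an unadjusted edgeR p under 0.05. CYP8B1, the sterol hydroxylase that directs synthesis to cholic acid, was lower in BRG1 (−2.02 ± 0.41) and double (−1.84 ± 0.41), at 0.501 ± 0.161 and 0.583 ± 0.244 CPM against 2.07 ± 0.435 CPM in NS (SD, n = 4 each). AKR1D1, the steroid reductase of the pathway, was lower in BRG1 (−1.66 ± 0.42) and double (−1.93 ± 0.42) and higher in BRM (1.61 ± 0.43). The peroxisomal enzyme HSD17B4 was likewise lower in BRG1 (−0.99 ± 0.15) and double (−0.65 ± 0.15) and higher in BRM (0.64 ± 0.16). The peroxisomal side-chain enzymes SCP2 (1.19 ± 0.20) and ACOX2 (1.42 ± 0.27) were higher in BRM. CYP7A1, the rate-limiting enzyme of the classical pathway, had 4, 6, 1 and 13 counts in BRG1, BRM, double and NS and was not tested.

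The other transporters gave 2 higher and 1 lower of 11 in BRG1 and 1 higher and 2 lower in double, too few to set apart from the shares over all genes (12.5 and 9.97% in BRG1, 11.8 and 9.9% in double). In BRM edgeR called 0 of 11 (2 at an unadjusted p under 0.05), DESeq2 called 1 and voom 0. SLCO1B3, the close relative of SLCO1B1, had 52 counts in BRG1, 3 in BRM, 1 in double and 0 in NS, which makes it at least 12.9-fold higher in BRG1 than in NS when NS is set at a floor of 3 counts for the whole group. SLCO1B3 passed the filter on low counts only through the BRG1 group, where it is high, so it had to differ. Its place among the 2 higher transporters, and among the 4 list genes higher in BRG1, is no separate finding. The uptake carrier SLCO2B1 was lower in BRG1 (−1.70 ± 0.28) and in double (−2.21 ± 0.29). The basolateral exporter ABCC4 (MRP4) was higher in double (0.79 ± 0.15) and, near the threshold, in BRG1 (0.43 ± 0.15, edgeR, adjusted p = 0.049). Of 4 detoxification enzymes, UGT2B7 was lower in all 3 knockdowns (−1.31 ± 0.23 in BRG1, −1.34 ± 0.26 in BRM and −2.37 ± 0.24 in double). SULT2A1, the bile acid sulfotransferase, was lower in BRG1 (−2.38 ± 0.40), and UGT2B4 was lower in BRG1 (−2.15 ± 0.67) and higher in BRM (3.32 ± 0.65). UGT2B genes are close paralogs among which reads can be divided wrongly.

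Of 9 genes that carry transporters to the canalicular membrane, the recycling GTPase RAB11A was higher in BRG1 (0.73 ± 0.13) and double (0.92 ± 0.13), and the scaffold PDZK1, which binds ABCC2, was lower in BRG1 (−1.97 ± 0.50). The motor MYO5B, known for its part in delivering ABCB11, was higher in BRG1 (0.54 ± 0.15, edgeR, adjusted p = 0.018), lower in double (−0.59 ± 0.15) and the only gene of the 48 to pass for the interaction (−1.45 ± 0.22, edgeR, adjusted p = 0.0065).

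Markers of other cell types with the same transporters were also read. The sum of 8 cholangiocyte markers was 3034 to 5361 CPM in BRG1, 705 to 1691 in BRM, 1508 to 3125 in double and 1412 to 1690 in NS libraries, with CFTR and SCTR under 1 CPM in every library. Of the 6 tested, only KRT19 passed in BRG1 (higher), where 4 changes were positive and 2 negative, with a median of 0.08. Only SOX9 passed in BRM and in double, as lower. Over all genes 12.5% were higher in BRG1, and 6.26 and 9.9% were lower in BRM and double (edgeR). The sum of 8 enterocyte markers was 66.2 to 196 CPM in BRG1, 535 to 820 in BRM, 155 to 299 in double and 266 to 443 in NS libraries. It was thus highest in the BRM libraries, as were SLC51A, which intestine also expresses, and the sum of the hepatocyte markers. SI stood at 0 counts and LCT, CDX2 and SLC5A1 under 1 CPM in every library. Of the 4 enterocyte markers tested, 3 were lower in BRG1 (APOA4, VIL1 and FABP2), 1 was higher in BRM (ALPI) and 1 lower in double (APOA4). Over all genes these shares were 9.97, 7.66 and 9.9% (edgeR). The part of these genes in the results was not tested. The 6 stromal markers summed to 120 to 295, 123 to 214, 89.9 to 139 and 61.5 to 118 CPM and the 7 blood and endothelial ones to 36.5 to 64.5, 58.9 to 81.4, 56.2 to 97.9 and 35.2 to 46.6 CPM in BRG1, BRM, double and NS libraries.

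Among tested genes within 200 kb of a member, a few passed in the same comparison as the member. Near ABCB4 1 of 4 was lower in BRG1 and 1 of 4 in double, near SLC27A5 1 of 17 was lower in BRG1, and in double 1 of 5 was lower near BAAT and 3 of 11 near ABCC3. Near SLC51A, which rose in BRM, the smallest adjusted p of its 5 neighbours there was 0.21 (edgeR). Near SLC51B, which rose in double, 2 of 8 were lower there, and near ABCC2, which fell in double, 2 of 6 were higher (edgeR). Over all tested genes 9.97% were lower in BRG1, 7.66% higher in BRM, and 11.8% higher and 9.9% lower in double, and with so few neighbours these counts are not set apart from those shares.

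In the authors' deposited tables, which compare each knockdown with the control, SLC51A in BRM and ABCB4, ABCC2, ABCC3, BAAT and SLC51B in double were also under an adjusted p of 0.05, as were ABCB4 and SLC27A5 in BRG1. Over the 10 members and 3 comparisons, all 30 signs and all 30 calls in those tables matched those of DESeq2 run here on the deposited counts. The log2 fold changes differed by at most 6.6e-06. This is the same tool on the same counts, so the match is no separate support for the calls. ABCB11 and SLCO1B1 have no adjusted p in the authors' tables and were counted there as not called.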

How the data were processed

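RNA was sequenced from 15 HepG2 libraries. Per the file headers and labels, the authors deposited 1 table of estimated counts per gene symbol, whole numbers not normalized between libraries. The submitters' processing notes name kallisto, DESeq2 and GRCh38, without versions, and the annotation and strandedness of the counting are not given in these sources. The authors' deposited comparison tables hold, per the file headers, a mean normalized signal, a log2 fold change, a Wald score and p-values.

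The 14621 genes that passed filterByExpr entered edgeR 4.0.16, run in R 4.3.3 (quasi-likelihood F test, robust, TMM, group means of all 15 libraries, two-sided), with Benjamini-Hochberg adjustment over all of them and a threshold of 0.05. SE is the size of the log2 fold change divided by the square root of F. Alternatives used DESeq2 1.42.0, limma 3.58.1 (voom), other filters and scaling, fewer libraries, and a replicate block. Coordinates came from GENCODE v29 (33662 of 35012 symbols matched). Scripts were tested on simulated data.

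The members and the lists were chosen with earlier results of these data known. Named were all members, SMARCA4, SMARCA2, NR1H4, NR0B2, SLCO1B3, CYP7A1 and, per list and knockdown, up to 2 called genes of smallest adjusted p. Other calls of these genes against NS are given as well. MYO5B was also named for the interaction after its value was seen, and UGT1A3 and NR5A2 for the way they passed the filter.

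The library numbers were read as pairing 2 groups if same-numbered libraries shared their deviations (a correlation over 0.1 in each pair). That was so between BRG1 and NS libraries (correlations 0.427 to 0.565), between double and NS libraries (0.179 to 0.454) and between BRG1 and BRM libraries (0.104 to 0.532), but not between BRM and NS (0.073 to 0.527), BRG1 and double (0.058 to 0.659) or BRM and double libraries (0.013 to 0.589). No correlation was computed between libraries of unlike number, so deviations shared by a set of libraries cannot be told apart from pairing by number. The main fit had no replicate block. No pair of libraries agreed within sampling noise (chi-square per degree of freedom of at least 5.35). Intervals and floors cover counting error only.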

Additional observations from a re-analysis of the deposited data

Results flagged for a closer look

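Among 21 sets of 4 libraries (each tested member in BRG1, double and NS), 2 held a library far from the other 3 on the log2 scale, where chance gives about 1 in 20. SLC51B stood at 21.98 CPM in double library 3, below 45.4 to 48.4 CPM in the other 3 double libraries. SLC27A5 stood at 8.41 CPM in double library 4, above 6.46 to 6.61 CPM in the others.

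The change in the double knockdown differed between libraries 3 and 4 and libraries 1 and 2 for ABCC3, by 1.33 ± 0.25 (edgeR, adjusted p = 0.011), and for SLC51B, by −2.04 ± 0.38 (adjusted p = 0.011). For ABCC3 the double means were 39.4 CPM in libraries 1 and 2 and 40.9 CPM in libraries 3 and 4, and the NS means 108 and 44.2 CPM. For SLC51B the double means were 48.0 CPM in libraries 1 and 2 and 33.7 CPM in libraries 3 and 4, and the NS means 5.39 and 15.4 CPM. The effect of BRM depletion on SLC51A differed between cells with and without BRG1 depletion, by −2.72 ± 0.44 (the interaction; edgeR, adjusted p = 0.012).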

How the results depend on the processing

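Of 317 members' values under other settings, 284 kept direction and call. The calls of ABCB4 in BRG1, of ABCB4, ABCC2 and BAAT in double, and of SLC51A in BRM and for the interaction held under every alternative run. Opposite in sign were, within libraries 3 and up, ABCC3 in BRG1 (0.241) and BRM (0.398), SLC51A in BRG1 (0.168) and double (0.016), SLC27A5 in BRM (0.448) and for the interaction (−0.439) and BAAT for the interaction (0.809). Within libraries 1 and 2 they were SLC51B in BRG1 (−0.001) and BRM (0.209), NR0B2 in double (0.259) and SMARCA4 in BRM (−0.036). None of these pooled changes was called. Leaving out 1 library gave −0.168 to 0.063 for ABCC2 in BRM, −0.258 to 0.223 for SLC51A in BRG1, −0.674 to 0.115 for the interaction of BAAT, −0.384 to 0.072 for SLC27A5 in BRM and −0.087 to 0.304 for SMARCA4 in BRM.

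Members called higher in BRG1 numbered 1 within libraries 3 and up. Those lower in BRG1 numbered 1 with no filter on low counts, 1 with only the groups compared in the fit, 4 within libraries 1 and 2 and 1 to 2 without 1 library. Those lower in BRM numbered 1 within either set, and those higher in double 0 with no filter and 0 to 1 without 1 library. For the interaction 2 were higher and 3 lower within libraries 1 and 2, and 2 were lower with the set as a term.

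With the replicate block, no member's call changed in the 3 comparisons with NS, and 2 members were lower for the interaction (1 without it). With the block, list genes lower in BRG1 numbered 25 (16 without it), higher in BRM 14 (8), lower in BRM 6 (1), higher in double 4 (2), lower in double 21 (12) and lower for the interaction 5 (1). Over all genes the block gave 5318 in BRG1 (3284 without it), 4153 in BRM (2035), 5200 in double (3165) and 633 for the interaction (73).

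With the set as a term, those list counts were 25, 15, 8, 4, 21 and 6, with 1 higher for the interaction, and the counts over all genes 5720, 4684, 5646 and 1061. Within libraries 1 and 2, list genes lower in BRG1 were 25, higher in BRM 13, lower in BRM 4, lower in double 19 and 4 each way for the interaction, and over all genes 5921 passed in BRG1, 4336 in BRM and 1938 for the interaction. Within libraries 3 and up, 5 list genes were lower in BRM, 22 in double and 3 for the interaction, and over all genes 3349 passed in BRM, 5286 in double and 530 for the interaction. DESeq2 gave 3 list genes lower in BRM, 2 lower for the interaction and 449 genes for the interaction. With only the groups compared, 2 list genes were higher in BRG1 and 1002 genes passed in BRM. Without 1 library, 1 to 4 list genes were higher in BRG1, 3 to 8 higher and 1 to 2 lower in BRM, and over all genes 959 to 2063 passed in BRM (959 without BRM library 2) and 38 to 166 for the interaction (166 without BRM library 1). The cause of these moves was not tested. Depth limits ABCB11, SLC10A1 and SLCO1B1, which were too low to test.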
